A study of Mus musculus with 11 samples.

Results

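The 10 genes described here belong to the extracellular matrix and its membrane and cytoskeletal partners, and were followed across mouse microglia: Cd44, fibronectin (Fn1), vimentin (Vim), 4 annexins (Anxa1, Anxa2, Anxa3, Anxa5) and 3 S100 genes (S100a4, S100a6, S100a10). They were picked by name from the 16894 genes of the table, and all 10 members were found there by Entrez identifier. Cd44 was taken in because its level was higher in both transplanted and cultured cells than in resident cells, so its values are given as a description, without a test, and the other 9 members were tested. RNA was sequenced from 11 libraries of microglia, the macrophages of the brain, all from Cx3cr1-GFP mice, whose microglia are marked by green fluorescence. Compared here were 3 libraries of primary microglia kept in culture, 4 of sorted resident cells and 4 of sorted cells recovered 3 months after transplantation. The purpose given is to see whether transplanted cells adopt the expression of untouched microglia. The labels attach to every library a treatment in which mice ate chow with PLX3397 at 600 mg/kg, an inhibitor of the survival receptor Csf1r, over 3 depletion cycles before the transplant. Whether mice used for resident or cultured cells had the treatment is not stated there, nor what the source of the transplanted cells was, how these were told from host cells, or the age of the mice. Whether replicates were separate animals or cultures is not stated either, so the p-values cover library-to-library spread alone, which may be technical.

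Cd44 is a cell-surface receptor for hyaluronan, a sugar polymer of the matrix, and is tied to actin by ezrin, radixin and moesin. Fibronectin is a secreted matrix glycoprotein bound by integrins, and vimentin is the intermediate filament of mesenchymal cells and many macrophages. Annexins bind membrane phospholipids in the presence of calcium. S100 proteins are small calcium-binding dimers, and S100a10, which has lost calcium binding, forms a complex with annexin A2 at the plasma membrane that binds plasminogen. In macrophages these genes are known from adhesion, migration and inflammation, and Cd44 is known to be low in microglia of the undisturbed brain.

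The members lie on 6 chromosomes (GRCm38.p6). Cd44 (Entrez 12505, 102811141 to 102901669) and Vim (Entrez 22352, 13574311 to 13582826) are on chromosome 2, Fn1 (Entrez 14268, 71585473 to 71653280) on chromosome 1, Anxa1 (Entrez 16952, 20373434 to 20390671) on chromosome 19, Anxa2 (Entrez 12306, 69453683 to 69491792) on chromosome 9 and Anxa3 (Entrez 11745, 96793385 to 96845968) on chromosome 5. Anxa5 (Entrez 11747, 36448923 to 36475887) and the S100 genes are on chromosome 3. S100a4 (Entrez 20198, 90603770 to 90606045) and S100a6 (Entrez 20200, 90612894 to 90614414) are neighbours in the S100 cluster with S100a5 between them, and S100a10 (Entrez 20194, 93555117 to 93564645) lies farther along the same chromosome. The promoters of 7 members were in the RefSeq promoter table of this build. Shown here, 5′ to 3′ on each gene's own strand, are the 250 bases before the start site of the 4 of these whose level was higher in transplanted than in resident cells by the description or test given further on. Capitals mark matches, on either strand, to 4 motifs searched. These were the AP-1 site, spelled TGANTCA, and the core of the PU.1 site, spelled GAGGAA. The others were the TEAD site, spelled GGAATG, and the TATA box, spelled TATAAA.
Cd44 (chr2:102901666-102901915, minus strand): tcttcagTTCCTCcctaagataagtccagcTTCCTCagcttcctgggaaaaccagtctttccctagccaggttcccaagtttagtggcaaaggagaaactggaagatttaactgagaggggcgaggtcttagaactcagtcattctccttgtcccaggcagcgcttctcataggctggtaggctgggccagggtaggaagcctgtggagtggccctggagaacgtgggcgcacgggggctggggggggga
Vim (chr2:13574061-13574310, plus strand): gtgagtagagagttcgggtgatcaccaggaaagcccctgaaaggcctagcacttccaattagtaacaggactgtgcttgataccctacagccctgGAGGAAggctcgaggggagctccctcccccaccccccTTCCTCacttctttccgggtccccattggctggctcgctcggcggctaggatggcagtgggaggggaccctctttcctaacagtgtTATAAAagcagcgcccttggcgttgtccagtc
Anxa2 (chr9:69453433-69453682, plus strand): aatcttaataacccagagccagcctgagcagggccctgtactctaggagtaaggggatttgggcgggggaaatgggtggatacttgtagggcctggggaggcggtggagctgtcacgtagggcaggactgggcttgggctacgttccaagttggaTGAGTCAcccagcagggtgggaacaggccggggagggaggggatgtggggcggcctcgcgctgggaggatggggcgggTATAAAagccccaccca
Anxa5 (chr3:36475888-36476137, minus strand): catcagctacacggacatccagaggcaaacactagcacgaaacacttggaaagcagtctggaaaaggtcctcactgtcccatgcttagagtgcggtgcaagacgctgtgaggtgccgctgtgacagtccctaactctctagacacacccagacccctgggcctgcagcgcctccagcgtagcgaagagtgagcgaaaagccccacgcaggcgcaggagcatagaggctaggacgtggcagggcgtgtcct
The Cd44 window held the PU.1 core at -243 and -220 from the start site, counted to the motif's first base with the start site as 0. The Vim window held the PU.1 core at -155 and -118 and the TATA box at -32. The Anxa2 window was the only one of the 7 members' windows with the AP-1 site, at -95, and it held the TATA box at -17. In the Anxa5 window none of the 4 motifs was found. Matches did not overlap each other. Over the 32851 promoter windows of the same length, 6.75% held the AP-1 site, 23.3% the PU.1 core, 12.6% the TEAD site and 12.4% the TATA box. Of the windows not printed, Anxa1 held the PU.1 core at -227, the TEAD site at -236 and the TATA box at -32, S100a4 held the TATA box at -31 and S100a6 held no match.

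Library totals were 26705034 to 28219696 expected read counts in cultured, 19055655 to 19965631 in resident and 18692721 to 19761208 in transplanted cells. Levels are given as CPM, read counts per 1e6 counts of a library after TMM scaling over all libraries, which compares 1 gene between libraries, or as deposited TPM, which is per gene length and compares genes with each other. A gene without counts may lie as high as 3 counts, which is 0.106 to 0.16 CPM before TMM scaling. Resident and transplanted cells had the markers of microglia: the 11 marker genes of this cell type summed to 58500 to 65800 CPM in resident and 51900 to 63300 CPM in transplanted libraries. In cultured libraries the sum was 3540 to 6070 CPM, with the marker Siglech at 0.74 CPM, so the cultured cells had these defining markers at low levels. Resident replicate 1 stood apart from the other resident libraries, with a chi-square per degree of freedom over genes of 43.3 to 47.3 against them and 8.16 to 8.88 among them, and cultured replicate 2 stood apart likewise (112 and 116 against 24). Without resident replicate 1, Anxa2 (log2 fold change 2.41 ± 0.37, adjusted p = 0.00327) and Fn1 (1.44 ± 0.36, adjusted p = 0.0355) were still called between transplanted and resident cells, and Vim and Anxa5 were not. Without cultured replicate 2, all 9 tested members were still called in both comparisons with culture. Reads were counted per gene, so splice forms of Cd44 and Fn1 were not told apart. S100a4 overlaps the predicted gene Gm42674 on the same strand with identical sequence over 302 bases, and Fn1 shares 198 bases with Apol7d on the opposite strand. Neither partner is in the table, and since the labels do not give strand, these values are uncertain to that extent.

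**Figure D1:**
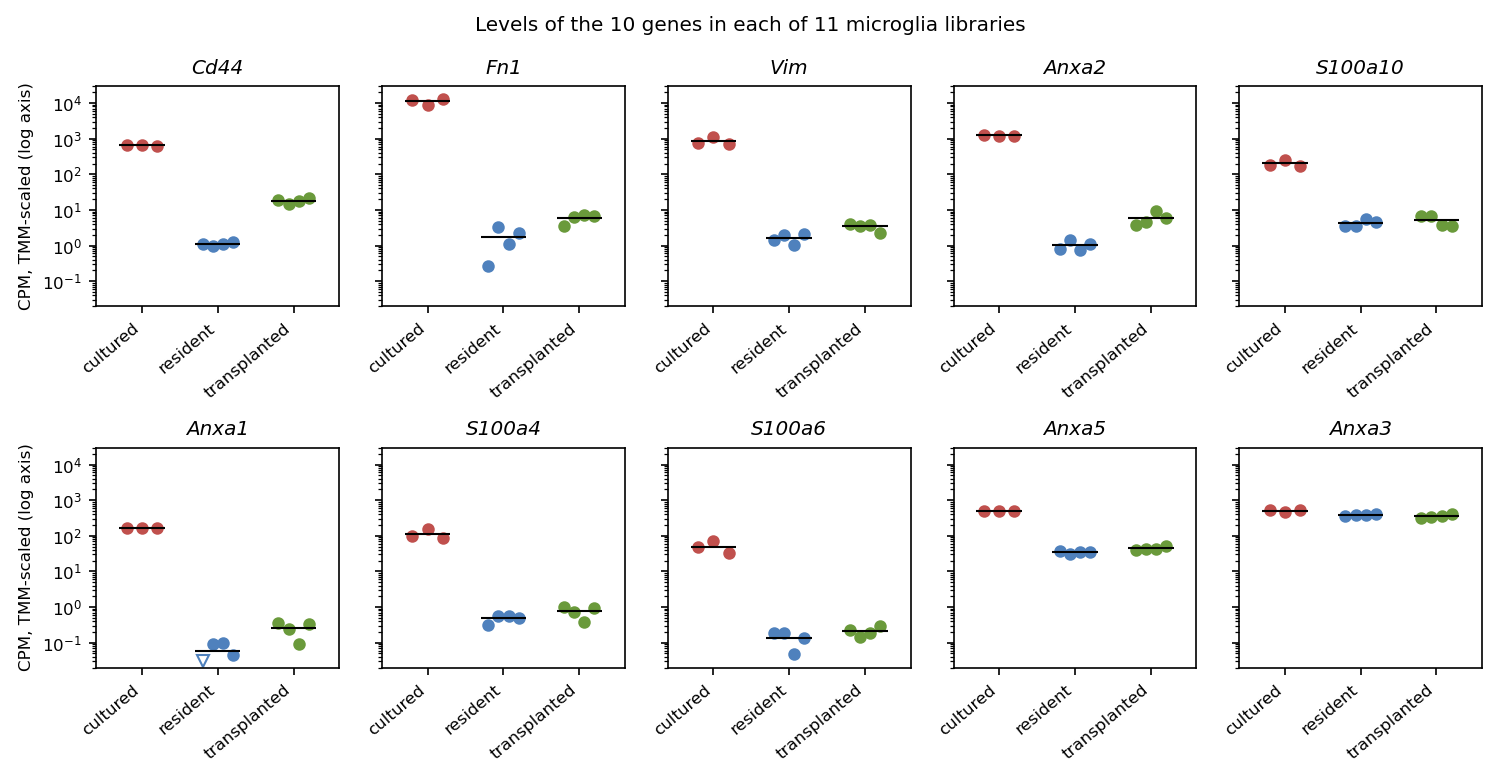
Level of each of the 10 genes in CPM (log axis) in the 3 cultured, 4 resident and 4 transplanted libraries; points are libraries, bars are group means, and the open triangle is a library at 0. All genes but Anxa3 stand far higher in cultured cells, while Anxa3 is close in all 3 groups and Cd44 is the gene whose transplanted libraries lie farthest from the resident ones.

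In resident microglia the annexin Anxa3 stood far above every other member. Per gene length, on the TPM scale, its level was 595 ± 32.6 (SD, n = 4), followed by Anxa5, an annexin that binds phosphatidylserine, at 48.4 ± 4.24 and S100a10 at 21.3 ± 4.81 TPM. The other 7 members had mean resident levels between 0.105 TPM (Anxa1) and 3.8 TPM (S100a4), with Cd44 at 0.573 ± 0.0538 and Fn1 at 0.478 ± 0.353. Resident S100a6, Cd44 and Fn1, at 0.598, 0.573 and 0.478 TPM, did not differ from each other beyond their spread, nor did Vim at 2.14 ± 0.594 and Anxa2 at 1.9 ± 0.574. The order at the top was the same in transplanted cells, with Anxa3 at 560 ± 62.8, Anxa5 at 63.5 ± 8.51 and S100a10 at 26.7 ± 8.22 TPM. Next in transplanted cells came Anxa2 at 10.9 ± 4.95 and Cd44 at 9.28 ± 1.52 TPM, which overlapped. In cultured cells (n = 3) Fn1 came first at 1500 ± 366 TPM and Anxa2 second at 1070 ± 58.2 TPM, while Anxa3 at 367 ± 47.6 TPM was sixth of the 10. Vim, S100a10 and S100a4 stood at 543 ± 117, 473 ± 62.6 and 406 ± 96.7 TPM, with ranges over libraries that overlapped. Within each cultured library Vim was above S100a10, and S100a10 above S100a4.

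**Figure D2:**
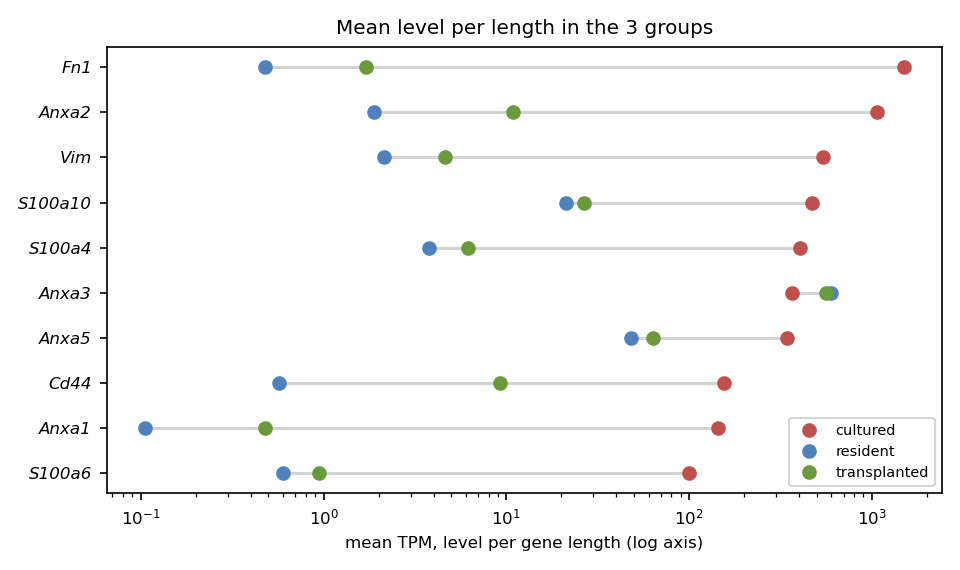
Mean TPM, a level per gene length, of each gene in cultured (n = 3), resident (n = 4) and transplanted (n = 4) cells on a log axis, ordered by the cultured level. For each gene the transplanted mean lies between the other group means, nearer the resident one except for Cd44, which lies near the middle, and Anxa3 is the gene with the cultured mean lowest on this scale.

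The comparison of transplanted with resident cells asks how far engrafted cells differ from those that never left the brain. Transplanted microglia had more Cd44, annexin A2, fibronectin, vimentin and annexin A5 RNA than resident microglia, at levels far below those in culture. Of the 9 members other than Cd44, 7 passed the filter on low counts and 2 did not. Of the 7, 4 were called higher and 0 lower at an adjusted p under 0.05 in edgeR's quasi-likelihood test, with the same counts at an unadjusted p under 0.05 and in DESeq2. Over all 11929 genes tested, 7.17% were called higher and 5.86% lower. In bulk RNA, more cells of a type and more RNA per cell cannot be told apart.

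Cd44 stood at 1.13, 0.981, 1.14 and 1.28 CPM in resident replicates 1 to 4 and at 18.9, 14.4, 17.9 and 21 CPM in transplanted replicates 1 to 4. Every transplanted library was thus above every resident one, and the spread within each group was small. The log2 fold change was 3.99 ± 0.16 (SE), or 15.9-fold, and lay between 3.91 and 4.07 with any 1 library left out. This difference chose the gene and is a description only.

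Anxa2, which links membranes to actin and binds S100a10, stood at 0.815, 1.45, 0.76 and 1.1 CPM in resident and 3.82, 4.61, 9.41 and 5.81 CPM in transplanted replicates 1 to 4. The groups did not overlap, a pattern that 10.2% of all genes showed in this direction, and transplanted replicate 3 was the highest. Anxa2 rose 5.73-fold (log2 fold change 2.52 ± 0.32, adjusted p = 0.000651). It was called in all 15 alternative settings, with log2 fold changes of 1.98 to 2.71.

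Fn1 stood at 0.272, 3.22, 1.14 and 2.24 CPM in resident and 3.46, 6.49, 7.36 and 6.92 CPM in transplanted libraries. The groups did not overlap, but the gap between the highest resident and the lowest transplanted library was narrow and resident replicate 1 was far below the others. Fn1 rose 3.53-fold (log2 fold change 1.82 ± 0.51, adjusted p = 0.0414). The call was lost without resident replicate 3 (adjusted p = 0.111) or 4 (0.0747), or without transplanted replicate 2 (0.0669), 3 (0.0893) or 4 (0.0819), and the log2 difference was 0.89 on the log2(TPM + 1) scale, which understates changes of low genes.

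Vim stood at 1.45, 1.96, 1.05 and 2.06 CPM in resident and 4.1, 3.65, 3.68 and 2.32 CPM in transplanted libraries. The lowest transplanted library, replicate 4, lay just above the highest resident one. Vim rose 2.11-fold (log2 fold change 1.08 ± 0.26, adjusted p = 0.0217). This call was lost without resident replicate 1 (adjusted p = 0.0652) or 3 (0.063), without transplanted replicate 1 (0.0557) or 3 (0.0543), and with the replicate number as a block (0.0538).

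Anxa5 was measured far more deeply, at 37.1, 30.1, 34.5 and 35.3 CPM in resident and 40.3, 41.6, 41.8 and 52.5 CPM in transplanted libraries. The groups did not overlap, and transplanted replicate 4 stood above the rest of its group. Anxa5 rose 1.29-fold (log2 fold change 0.37 ± 0.1, adjusted p = 0.0394), the smallest of the called changes. The call was lost in the fit of all 11 libraries (adjusted p = 0.0561) and without resident replicate 1 (0.0524), 2 (0.115), 3 (0.103) or 4 (0.0838) or transplanted replicate 2 (0.0538), 3 (0.0593) or 4 (0.0787). Together the members called higher numbered 4 with all libraries and 1 to 3 with a library left out: 3 without resident replicate 2 or transplanted replicate 1, 2 without resident replicate 1 or 4 or transplanted replicate 2 or 4, and 1, Anxa2, without resident replicate 3 or transplanted replicate 3.

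**Figure D3:**
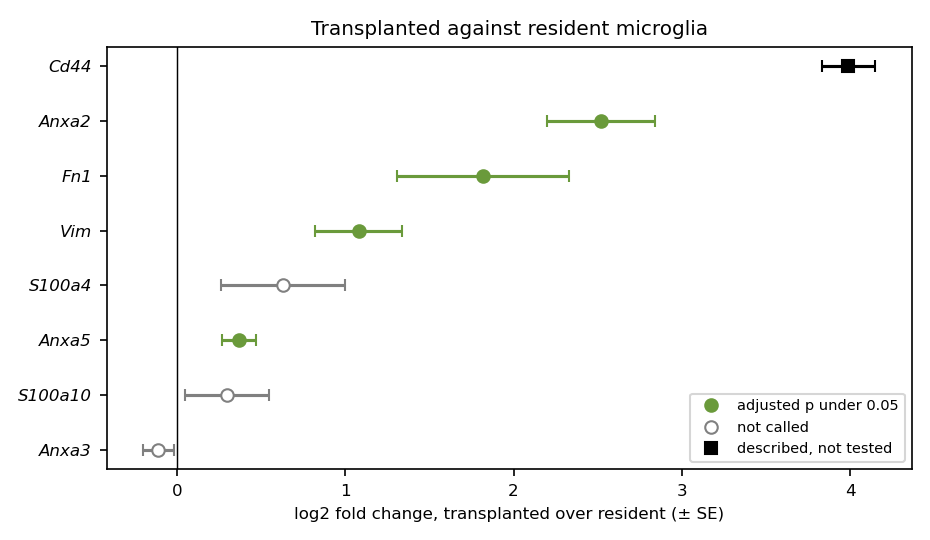
Log2 fold change of transplanted over resident cells with its standard error for the 8 members that passed the filter (4 libraries a group). Cd44, drawn as a square, is described and not tested; Anxa2, Fn1, Vim and Anxa5 are called higher, and S100a4, S100a10 and Anxa3 are not called.

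The other 5 members gave no call in this test between transplanted and resident cells. Anxa3 stood at 351, 388, 388 and 414 CPM in resident and 311, 347, 362 and 400 CPM in transplanted libraries, and the groups overlapped (log2 fold change -0.11 ± 0.09, adjusted p = 0.436). S100a10 stood at 3.53, 3.5, 5.46 and 4.48 CPM in resident and 6.87, 6.58, 3.82 and 3.58 CPM in transplanted libraries, where replicates 1 and 2 were above, and replicates 3 and 4 within, the resident range (0.3 ± 0.25, adjusted p = 0.479). S100a4, a marker of motile and fibroblast-like cells, stood at 0.317 to 0.57 CPM in resident and 0.373 to 1 CPM in transplanted libraries, which overlapped (0.63 ± 0.37, adjusted p = 0.301). Anxa1, whose protein acts on formyl peptide receptors to restrain inflammation, had 5 counts over the 4 resident and 22 over the 4 transplanted libraries, and S100a6 had 12 and 18. Both were below the filter. Tested without it, Anxa1 had a log2 fold change of 2.05 ± 0.76 (edgeR, adjusted p = 0.127) and S100a6 one of 0.58 ± 0.59 (adjusted p = 0.582). In the fit of all 11 libraries, where both passed the filter through the cultured libraries, Anxa1 was called higher (2.05 ± 0.54, adjusted p = 0.0378) and S100a6 was not (0.59 ± 0.56, adjusted p = 0.684).

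**Figure D4:**
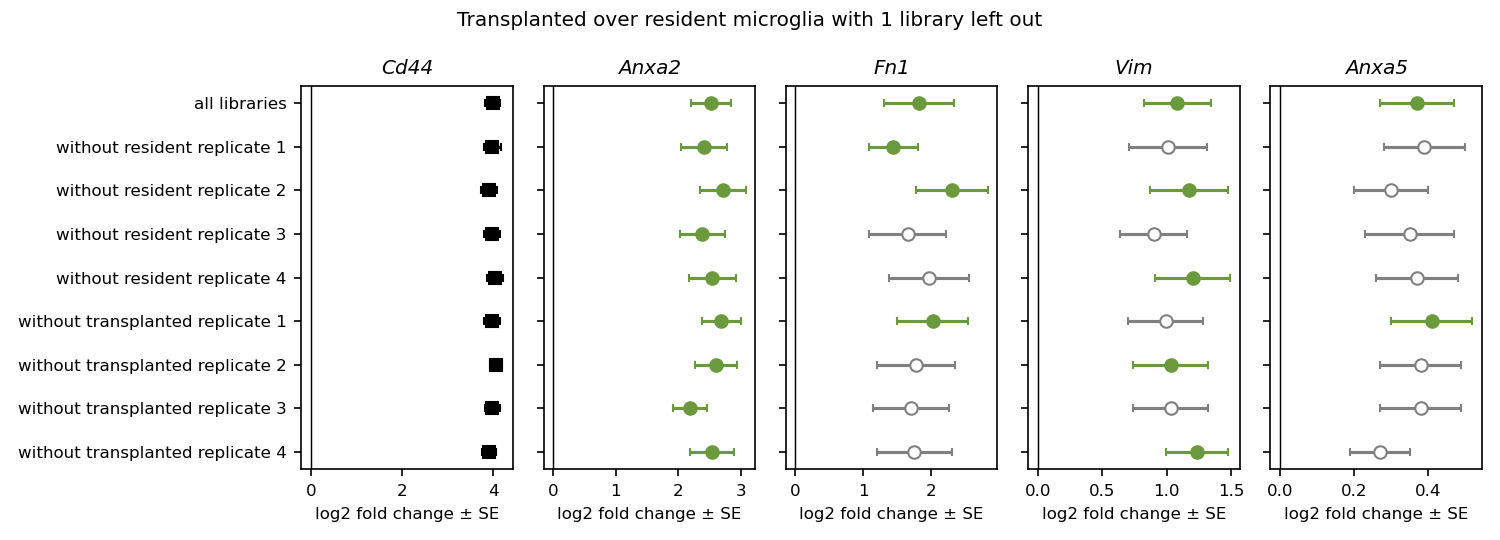
Log2 fold change of transplanted over resident cells (± SE) for Cd44, Anxa2, Fn1, Vim and Anxa5 with all libraries and with each library left out; filled circles have an adjusted p under 0.05, open circles do not, and squares are not tested. The direction is the same in each fit, with Anxa2 called throughout, and Anxa5 called with all libraries and in 1 of the 8 fits that leave a library out.

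The members that were higher did not follow a common library order. Among transplanted libraries Anxa2 and Fn1 were highest in replicate 3, Cd44, Anxa5, Anxa3 and S100a6 in replicate 4, and Vim, Anxa1, S100a4 and S100a10 in replicate 1. Anxa2 and S100a10, whose proteins form a complex, stood in different orders: transplanted replicate 3 had the highest Anxa2 and the second-lowest S100a10. With 4 libraries no correlation was computed. Set against the cultured mean, the transplanted excess over the resident mean was 2.63% of the cultured level for Cd44, 1.92% for Anxa5, 0.398% for Anxa2, 0.207% for Vim and 0.0389% for Fn1. With the resident and cultured means held fixed, the ranges over transplanted libraries were 2.06% to 3.09% for Cd44 and 0.228% to 0.684% for Anxa2. They were 0.0796% to 0.283% for Vim, which overlapped that for Anxa2, and 0.0156% to 0.0506% for Fn1. The share of Cd44 rests on the values that chose it. The range for Anxa5, 1.18% to 3.58%, overlapped that for Cd44.

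Markers of other cells were read beside these differences. The 7 monocyte markers summed to 6.57 to 11.1 CPM in resident and 2.09 to 2.66 CPM in transplanted libraries, and their one tested gene, Ccr2, was called lower. Of 10 markers of border-associated macrophages, 7 were called lower and none higher in transplanted cells, with Cd209f at 0 there. At an unadjusted p under 0.05 in edgeR, 8 were lower and 1 was higher. Ms4a7 averaged 3.57 CPM in resident and 12 CPM in transplanted libraries, where it ranged from 1.59 to 24.3 CPM. The sums of this list were 579 to 676 CPM in resident and 389 to 626 CPM in transplanted libraries. They were mostly Stab1, which was not called. The 7 lymphocyte markers summed to 18.2 to 27.3 and 1.06 to 1.78 CPM, and the 5 neutrophil markers in the table to at most 0.42 and 0.242 CPM. Mural cell and fibroblast markers, 7 of 8 in the table, had overlapping sums of 0.701 to 1.37 and 0.699 to 1.55 CPM. The 7 endothelial markers summed to 38 to 56.2 CPM in resident and 13.5 to 18.3 CPM in transplanted cells, mostly Pecam1, while Flt1 and Cdh5 were called higher (log2 fold changes 1.85 ± 0.44 and 1.06 ± 0.26). Astrocyte sums were 210 to 265 CPM in resident and 142 to 269 CPM in transplanted libraries. They were mostly Slc1a3, at a mean of 241 CPM in resident and 193 CPM in transplanted cells. Neuron sums were 4.94 to 7.22 CPM in resident and 4.55 to 6.44 CPM in transplanted libraries. Oligodendrocyte sums were 179 to 191 and 164 to 179 CPM, with 1 of 4 tested markers called lower. Choroid plexus and ependymal markers ranged from 0.181 to 105 and from 10 to 62.2 CPM. The markers at 0 in all resident libraries were Mmp8, Cd3e and Ccdc153, and those at 0 in all transplanted libraries were Cd209f, Rgs5 and Ccdc153. The part of other cell types in the members' values was not tested.

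The lists of related genes hold the rest of both families and the binding partners of the members. Of 5 other annexins tested, 0 were called between transplanted and resident cells in edgeR, with 1 higher and 1 lower at an unadjusted p under 0.05 and a median log2 fold change of 0 against 0.02 over all genes. Of 3 other S100 genes tested, 0 were called, 0 had an unadjusted p under 0.05 and 0 were called in DESeq2 (median 0.13). Anxa4 was near the threshold, at 24 ± 2.34 CPM in resident and 30.2 ± 3.13 CPM in transplanted cells (log2 fold change 0.34 ± 0.1, adjusted p = 0.0508), and was the 1 annexin called higher with DESeq2 and on the TPM scale. Of 15 hyaluronan and Cd44 partner genes tested, 3 were called higher and 1 lower (median 0.07). Ezr, the ezrin that ties Cd44 to actin, rose from 1.61 ± 0.475 to 6.01 ± 1.71 CPM (1.9 ± 0.27), and the proteoglycan Vcan rose by 1.14 ± 0.3. The moesin and radixin genes, Msn and Rdx, were not called. Msn stood at 592 ± 39.8 CPM in resident and 535 ± 27.8 CPM in transplanted cells, and Rdx at 105 ± 3.37 and 109 ± 6.31 CPM. Lyve1, a hyaluronan receptor that also marks border-associated macrophages, fell by 4.31 ± 0.51 on the log2 scale. Vcan passed the filter only through the transplanted libraries, and Lyve1 only through the resident ones. Each is higher in the group that passed it, so these calls are not free of the filter. With DESeq2 and with the replicate block 2 partners were lower.

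Among 12 fibronectin receptors and matrix partners tested, 5 were called higher and 1 lower in transplanted cells (median 0.28). Lox, the lysyl oxidase that cross-links collagen, rose by 3.07 ± 0.39 from 0.498 ± 0.078 to 4.22 ± 2.06 CPM, and Itga4, a subunit of a fibronectin-binding integrin, rose by 1.41 ± 0.2. The matrix gene Fbln1 fell by 2.38 ± 0.56. Lox passed the filter only through the transplanted libraries, and Fbln1 only through the resident ones. These calls are thus not free of the filter either. There were 3 higher in the fit of all 11 libraries and without resident replicate 2, 3 or 4, and none was lower without resident replicate 3 or 4 or transplanted replicate 3. Among 15 intermediate filament and actin partner genes, 3 were higher and 1 lower (median 0.03). The nuclear filament gene Lmna rose by 1.77 ± 0.21 and Plec, whose protein plectin links vimentin filaments to adhesions, by 1.17 ± 0.21, while the actin-binding calponin gene Cnn2 fell by 1.13 ± 0.2, and 2 were lower without transplanted replicate 3, with the replicate block and on the log2(TPM + 1) scale, and 3 with DESeq2. Of 6 annexin receptor and plasminogen genes tested, 2 were higher (median 0.15): Plau, the urokinase that activates plasminogen, by 0.88 ± 0.14, and the phospholipase gene Pla2g4a by 0.39 ± 0.11. That count was 1 without any single one of the resident libraries, without transplanted replicate 2, 3 or 4, in the fit of all 11 libraries, with the length trend removed and on the TPM scale. No gene of this list was called lower in edgeR or DESeq2, with 1 lower at an unadjusted p under 0.05.

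Cultured and resident microglia were the reference states. Of the 9 members tested, 9 were called higher in culture, where 37.9% of 12406 genes tested were called higher and 37.2% lower. Anxa1 and S100a6 passed the filter only through the cultured libraries, where they are high, so their calls follow from it and add nothing to the count. Fn1 stood at 12200, 8540 and 12800 CPM in cultured replicates 1 to 3, and no cultured library came near the resident range given above. Its log2 fold change was 12.7 ± 0.71 (adjusted p = 3.87e-07). Cd44, given as a description, stood at 658, 653 and 619 CPM in culture, which is 9.18 ± 0.14 above resident cells on the log2 scale. Vim, at 774, 1140 and 703 CPM in culture, was higher by 9.1 ± 0.3 (adjusted p = 1.95e-08).

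The annexins differed in how far they stood above resident cells. Anxa2 stood at 1250, 1220 and 1210 CPM in culture (10.25 ± 0.23, adjusted p = 4.91e-09) and Anxa1 at 168, 163 and 169 CPM (11.39 ± 0.26, adjusted p = 4.91e-09), where the resident level of Anxa1 was near the floor. Anxa5 stood at 509, 507 and 509 CPM, higher by 3.93 ± 0.11 (adjusted p = 1.04e-08). Anxa3 stood at 512, 453 and 528 CPM, only just above the resident libraries. It was called higher by 0.41 ± 0.11 (adjusted p = 0.00718) with TMM-scaled counts but lower, by -0.7 ± 0.11, on the TPM scale, where the median of all genes was shifted by -0.84, and it was not called with each library's trend on gene length removed (0.05 ± 0.11, adjusted p = 0.699). The direction of Anxa3 between cultured and resident cells thus rests on the scaling.

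The S100 members were also higher in culture, and their cultured libraries spread more widely than those of the annexins. S100a10 stood at 187, 249 and 172 CPM (5.61 ± 0.21 above resident cells, adjusted p = 3.66e-08). S100a4 stood at 96.5, 155 and 87.7 CPM (7.88 ± 0.28, adjusted p = 3.1e-08), and S100a6, which associates with annexins, at 47.2, 69.5 and 32.6 CPM (8.46 ± 0.39, adjusted p = 1.17e-07). Cultured replicate 2 was the highest of the 3 libraries in each of these S100 genes and in Vim, and the lowest in Fn1, Anxa1, Anxa3 and Anxa5. Relative to the mean, the SD over cultured libraries was 20.3% to 37.3% for the S100 genes and 0.284% to 7.89% for the annexins, with Vim at 26.9%, Fn1 at 20.5% and Cd44 at 3.34%. Monocyte markers also differed between these groups, summing to 312 to 369 CPM in cultured libraries with 5 of 6 tested called higher and 1 lower, and neutrophil markers summed to 62.5 to 97.9 CPM. Markers of border-associated macrophages summed to 3640 to 3940 CPM in cultured against 579 to 676 CPM in resident libraries, with 5 of 10 called higher, among them Pf4 (1350 against 5.31 CPM), F13a1 (920 against 14.7 CPM) and Mrc1 (743 against 37.3 CPM), and 3 lower. Mural cell and fibroblast markers, of which 2 of 2 tested were called higher, summed to 3.96 to 6.58 CPM in cultured and 0.701 to 1.37 CPM in resident libraries. The part of these cell types in the members' values was not tested.

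Of the other annexins, 5 of 5 tested were called higher in culture (median 1.49 against -0.02 over all genes), with Anxa4 at 3.4 ± 0.12 and Anxa6 at 2.13 ± 0.13, although 2 of them were called higher on the TPM scale. Of the other S100 genes, 4 of 4 tested were called higher (median 6.03), led by S100a8, a neutrophil and monocyte alarmin, at 8.15 ± 0.47, which had 4 resident counts and passed the filter through the cultured libraries, and S100a11 at 6.64 ± 0.26. Of the 11 other S100 genes in the table, 7 had too few counts to be tested. S100a5, which lies between S100a4 and S100a6, had 7 counts over the cultured libraries and 0 over the sorted ones.

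**Figure D5:**
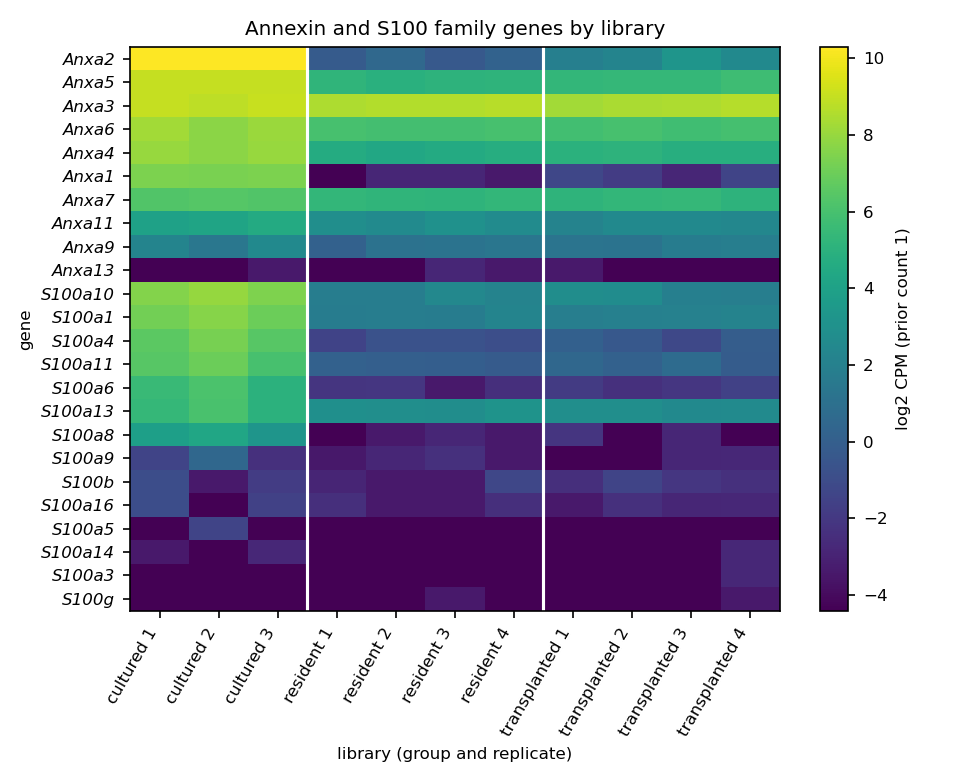
Log2 CPM (prior count 1, colour) of the annexin and S100 genes in the table across the 11 libraries, with white lines between the cultured, resident and transplanted groups. Anxa3 is bright in every library, Anxa4, Anxa5, Anxa6 and Anxa7 are well above 0 in each, Anxa1, Anxa2, S100a4, S100a6 and S100a11 are high in the cultured libraries, and several S100 genes are near 0 counts throughout.

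Partner genes differed in both directions in this comparison, as did all genes tested, of which 37.9% were called higher and 37.2% lower. Tnfaip6 and Sdc1, named in this paragraph, and Col1a1, counted among the fibronectin partners called higher, passed the filter only through the cultured libraries. Lyve1, Has3, Itgb3 and Fbln1 passed it only through the resident ones. Each is higher in the group that passed it, so these calls follow from the filter. Of 16 hyaluronan and Cd44 partners tested, 8 were higher and 5 lower (median 0.34). Spp1, the secreted Cd44 and integrin ligand osteopontin, was higher by 11.67 ± 0.71, and Tnfaip6, which binds hyaluronan, was without counts in the resident libraries and at least 34.3-fold higher in culture, taking 3 counts over the group as the floor. Lyve1 (-3.07 ± 0.34) and the hyaluronan synthase gene Has3 (-2.76 ± 0.77) were lower. On the TPM scale 8 partners were lower. Of 14 fibronectin receptors and matrix partners, 8 were higher and 4 lower (median 1.12), with the syndecan Sdc1 at 8.85 ± 0.42 and the matrix gene Thbs1 at 8.16 ± 0.28. The integrin subunit Itgb3, which pairs with Itgav to bind fibronectin and vitronectin, stood at 0.353 CPM in cultured and 94 CPM in resident cells (-7.99 ± 0.26), and Fbln1 had no count in culture and was at least 29.7-fold lower.

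Of 15 intermediate filament and actin partners, 12 were higher and 1 lower in culture (median 1.73), with Plec at 5.63 ± 0.19, Lmna at 5.61 ± 0.19 and Cnn2 at -0.7 ± 0.22. The lower count was 2 without the filter, 0 with the replicate block and 5 on the TPM scale. Of 10 annexin receptor and plasminogen genes, 8 were higher and 1 lower (median 5.33). Among these, Serpinb2, Fpr2, Fpr1 and Myof averaged at most 0.429 CPM in resident cells. They passed the filter only through the cultured libraries, where they are higher, so their calls follow from it. Serpinb2, an inhibitor of urokinase, was likewise without resident counts and at least 472-fold higher, and Ahnak, a large protein that binds the complex of Anxa2 and S100a10, was higher by 8.53 ± 0.37. Pla2g4a was lower (-0.71 ± 0.19), and 2 genes were lower on the TPM scale. The comparison of cultured with resident cells and that of transplanted with resident cells use the same resident libraries.

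Transplanted cells were also compared directly with cultured cells. Of the 9 members tested, 9 were called lower in transplanted cells, where 35.5% of 12284 genes tested were called lower and 36.9% higher. Anxa1 and S100a6 again passed the filter only through the cultured libraries. Log2 fold changes ran from -10.86 ± 0.33 for Fn1 (adjusted p = 6.26e-09), through -9.31 ± 0.24 for Anxa1, -8 ± 0.27 for Vim and -7.71 ± 0.3 for Anxa2, to -3.54 ± 0.13 for Anxa5 (adjusted p = 1.96e-08). The S100 genes lay between these, at -7.85 ± 0.35 for S100a6, -7.23 ± 0.32 for S100a4 and -5.29 ± 0.27 for S100a10. Anxa3 had the smallest difference (-0.5 ± 0.12, adjusted p = 0.00444), which was not called with the length trend removed (-0.14 ± 0.12, adjusted p = 0.343) and was 0.61 ± 0.13, the other direction, on the TPM scale. Cd44, described without a test, stood -5.17 ± 0.16 from the cultured level.

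On a scale on which the cultured mean of log2 CPM is 0 and the resident mean is 1, transplanted cells stood at 0.57 for Cd44, 0.76 for Anxa2, 0.83 for Fn1, 0.86 for Anxa1, 0.88 for Vim, 0.91 for Anxa5, 0.93 for S100a4 and S100a6 and 0.95 for S100a10. Anxa3, for which cultured and resident cells differ little, gave 1.33. These positions are descriptions, and that of Cd44 rests on the values that chose it.

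In the lists, transplanted against cultured cells gave 4 of 5 other annexins lower (Anxa4 at -3.04 ± 0.13, Anxa6 at -2.16 ± 0.14, median -1.85 against 0.05 over all genes). All 4 other S100 genes tested were lower (S100a8 at -7.58 ± 0.59, S100a11 at -6.27 ± 0.29, median -5.77). Of 15 hyaluronan and Cd44 partners, 5 were higher and 8 lower (median -0.69), with Has3 at 3.24 ± 0.75, Hyal2 at 1.25 ± 0.29 and Spp1 at -10.39 ± 0.28, and 3 were higher with the length trend removed. Tnfaip6 had 2 counts in transplanted cells, a ratio of 50.6 below the cultured level (95% counting interval 13.5 to 425). Of 13 fibronectin receptors and matrix partners, 4 were higher and 7 lower (median -0.88), with Itgb3 at 7.77 ± 0.4, Lox at 2.08 ± 0.48, Sdc1 at -8.07 ± 0.35 and Thbs1 at -7.79 ± 0.28. Lox was higher in transplanted cells than in either other group. Of 15 intermediate filament and actin partners, 1 was higher (Lmnb2 at 0.58 ± 0.23) and 12 lower (Plec at -4.44 ± 0.19, Tagln2 at -4 ± 0.15, median -2.24). Lmnb2 was not called without cultured replicate 2, without transplanted replicate 1, 2 or 3, or with the length trend removed, and 5 of this list were higher on the TPM scale. Of 10 annexin receptor and plasminogen genes, 2 were higher (Pla2g4a at 1.11 ± 0.21, Plau at 0.82 ± 0.21) and 8 lower (median -5.65), with Ahnak at -9.78 ± 0.25 and Serpinb2, at 0 counts in transplanted cells, at least 464-fold lower. S100a8, Tnfaip6, Sdc1, Ahnak and Serpinb2 passed the filter here only through the cultured libraries. So did Fpr1, Fpr2 and Myof, counted among the 8 lower annexin receptor and plasminogen genes. Col1a1, counted among the 7 lower fibronectin partners, did likewise. Has3, Itgb3 and Lox passed the filter only through the transplanted libraries. The calls of these genes follow from that, and the counts and medians that hold them rest on it in part.

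The genes whose log2 CPM followed Cd44 most closely over the 11 libraries, among 11682 genes tested in all comparisons, included Plin3 (Pearson r = 0.9959), Ptges3l (0.9945), Nedd9 (0.9935) and Mob3b (0.9932). Plin3, a lipid droplet coat gene, stood at 193 CPM in cultured, 12.2 in resident and 44.3 in transplanted cells, and Nedd9, a scaffold of integrin signalling, at 135, 2.26 and 13.5 CPM. Those closest to Anxa2 were the chemokine gene Cxcl14 (0.998), Mgst1 (0.9965), Nceh1 (0.9962), Dram1 (0.9957) and Fam20c (0.9956). Cxcl14 stood at 356, 0.393 and 1.98 CPM. These coefficients describe 11 libraries of 3 groups, and the difference between groups sets most of their size.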

How the data were processed

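Per the labels' protocols, libraries were made from 1 ng of total RNA with Smart-Seq. Groups came from the library titles. The authors deposited expected counts per gene, unscaled, which were rounded to whole numbers here, and TPM values, scaled for length and depth as deposited. HISAT, Bowtie2 and the build GRCm38.p6 are named in the submitters' processing notes; their versions, the counter and the annotation are "not stated". The deposited FPKM, 11 columns, stayed out. Symbols from RefSeq matched 16845 of 16894 identifiers.

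Every comparison used its own groups only, in edgeR 4.0.16 under R 4.3.3: TMM scaling, filterByExpr, the quasi-likelihood test and Benjamini-Hochberg adjustment over all genes tested, called under 0.05. SE is the log2 fold change over the root of F. Alternatives were DESeq2 1.42.0, no filter, 1 fit of all libraries, a replicate block, removal of the length trend, limma 3.58.1 on log2(TPM + 1) and log2(TPM + 0.1), and each library left out. The procedure was tested on simulated data. Intervals and floors cover counting error only. Replicates of a group differed beyond counting noise. Partner genes named are those with the largest called changes, up to 2 in each direction per list and comparison. Anxa4, Msn and Rdx between transplanted and resident cells, S100a5 and the single cell type markers were named after their values were seen. So were genes named only for how they passed the filter. Members and lists were chosen with earlier results of these data known. Of the 5 genes most like Cd44 by correlation, 1 is not reported here.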

Additional observations from a re-analysis of the deposited data

Results flagged for a closer look

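Anxa5 in transplanted microglia had 1 library apart from the rest: replicate 4 stood at 52.5 CPM, with the nearest library at 41.8 and the lowest at 40.3 CPM. Its gap was 0.876 of the group's range, above Dixon's 95% critical value for 4 libraries. It was the 1 such case among 20 groups of 4 examined, and chance gives about 1 in 20. Without this library Anxa5 was no longer called higher than in resident cells (log2 fold change 0.27 ± 0.08, adjusted p = 0.0787).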

How the results depend on the processing

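The directions of all members tested were the same in each setting, except Anxa3 on the TPM scale, at -0.7 in cultured against resident and 0.61 in transplanted against cultured cells with either pseudocount, which there gave 1 member lower and 1 higher. The count of 9 members called in culture, and of 9 called lower in transplanted against cultured cells, became 8 when the length trend was removed and on the TPM scale, and 9 held otherwise. Between transplanted and resident cells, members called higher numbered 1 to 3 with a library left out, 3 with the replicate block and 4 in the other settings; in the fit of all libraries these 4 held Anxa1 in place of Anxa5. All genes called there numbered 855 higher and 699 lower, 511 to 875 and 509 to 878 with a library left out, and 507 and 405 in 1 fit of all libraries. On the TPM scale, cultured against resident cells gave 2202 higher and 8305 lower (2192 and 8312 with the smaller pseudocount) in place of 4704 and 4612, and transplanted against cultured cells 8158 and 2016 (8171 and 2007) in place of 4530 and 4361. There 21% and 80.2% of calls were higher, against 50.5% and 51%, and the medians of all genes shifted by -0.84 and 0.87. The cause was not tested. Same-numbered libraries did not deviate together over all genes (correlations -0.07 to 0.05). Whether the numbers pair libraries is not stated, and these correlations cannot exclude it. The replicate block ended 1 member call, that of Vim, and gave 707 genes higher and 592 lower between transplanted and resident cells. Depth limits Anxa1 and S100a6, which had at most 22 counts in all over each sorted group.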
